A study of Mus musculus with 1699 samples.

Results

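The 39 genes described here encode the neuropeptide system of the sorted ventral midbrain cells: 29 peptide precursors, 6 granins or granin-like proteins (Scg2, Scg3, Scg5, Vgf, Chga, Chgb) and 4 enzymes that cut or modify the precursors (Pcsk1, Pcsk2, Cpe, Pam). They were listed by name, with earlier results of these data known, and 38 of them matched 1 entry each among the 39468 gene entries. Kiss1 matched none. Cells were GFP-sorted from dissected ventral midbrain and sequenced singly with Smart-seq2, a full-length method without molecular identifiers. Heterozygous mice (Pitx3eGFP/wt) carry eGFP in place of 1 functional Pitx3 allele and were sampled before birth (E13.5, E15.5, E18.5), after birth (P1 and P7) and as adults (P90). Homozygous mice (Pitx3eGFP/eGFP) carry eGFP at both alleles, lack functional Pitx3, and were sampled at E13.5 and P1. All groups carry the knock-in, and GFP marks cells in which the Pitx3 locus is or was active. Of 1699 cells, 1553 were kept, 1200 heterozygous and 353 homozygous. Heterozygous cells of E13.5 (140 cells) made up 9.02% of those kept, E15.5 cells 9.08%, E18.5 cells 12%, P1 cells 18.3%, P7 cells 7.92% and P90 cells 20.9%. Homozygous cells made up 11.5% (E13.5) and 11.2% (P1), and the plots by stage and by genotype give each number of cells.

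Neuropeptides are made as precursors that enter dense-core vesicles, where granins help to form the vesicle core and the convertases encoded by Pcsk1 and Pcsk2 cut the precursor. Carboxypeptidase E (Cpe) then trims basic residues and Pam amidates the C terminus of many peptides. Peptides can be released by neurons that also release classical transmitters, and in midbrain dopamine neurons Cck and Vip are among the known co-transmitters.

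Several animals were used per stage but the labels do not tie cells to them, so each stage and genotype is 1 sample and no test was run. Shares of cells over an RPKM of 10 ("detected") or 150 ("high") are given with exact Clopper-Pearson 95% intervals, and differences between shares in percentage points with Newcombe 95% intervals. PCR reads are not independent molecules, and both intervals cover counting error only. Depth ranged from 100007 to 8634201 reads per kept cell. At least 3 of 13 oligodendrocyte markers were over RPKM 10 in 96 cells, which were left out. Astrocyte markers (3 or more of 5 over RPKM 10) remained in 24 cells (8.45%) at P1 and 44 (35.8%) at P7, but in 0 cells at E13.5 and P90. Fewer than 3 neuronal markers were over RPKM 10 in 38 P7 cells, and in 5 once the astrocyte-marker cells were left out. Several P1 and P7 values are therefore also given without these cells. The tissue was dissociated with another kit at P1 and P7 than before birth and with papain at P90. Stage and dissociation therefore cannot be told apart between these 3 sets of stages, while E13.5, E15.5 and E18.5 shared a kit, as did P1 and P7. The paper reports spike-in RNA only for E18.5, P1 and P90, and the heterozygous E13.5 cells had none. Stage and spike-in thus also cannot be told apart between E13.5 and E18.5 or P90 heterozygous cells.

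Scg2, Scg5, Chga and Vgf were detected or high in more cells at P90 than at E13.5. Scg2, encoding secretogranin II, was high in 48.6% of E13.5 cells. The share was 94.3% (E15.5), 91.4% (E18.5), then 85.2% on day P1 and 61% on day P7, and 99.4% in adult cells. Without the astrocyte-marker cells the share was 89.6% at P1 and 86.1% at P7. At E13.5 single cells ranged from RPKM 0 to 1123 with a median of 130.6, and at P90 from 6.69 to 6575 with a median of 2022. The ranges overlapped, but the share of high cells was 50.8 points higher at P90 than at E13.5 (interval 42.5 to 59).

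Scg5, which encodes the 7B2 chaperone of the Pcsk2 convertase, was high in 67.1% of cells at E13.5 and 98.2% at P90, and its level averaged RPKM 253.4 and 674. Chga, encoding chromogranin A, was high in 24.3% and 79.7% of cells, 55.4 points more at P90 (46.4 to 62.9). Vgf, which encodes an activity-regulated precursor, was detected in 2.14% (E13.5), 4.96% (E15.5), 32.1% (E18.5) and 43.1% (P90) of cells, and was high in only 2.46% at P90.

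Scg3 had fewer high cells at P90 than at E13.5, and Chgb a lower mean. The mean RPKM of Chgb, encoding chromogranin B, was 381.7 in E13.5 cells, 261.2 in E15.5 cells, 147.2 in E18.5 cells and 184.2 in P90 cells. It was detected in 92.1% of cells at E13.5 and 98.2% at P90, while the share of high cells was 10.5 points lower at P90 (interval -19.8 to -0.594). Without plate P90_4, where 39.8% of cells were high, the difference was -5.68 points with an interval of -15.6 to 4.66. Scg3, encoding secretogranin III, was high in 45.7% of cells at E13.5 and 23.7% at P90, 22 points fewer (12.6 to 31.3). It was high in 64.5% of E15.5 cells, and detected in 92.9% at E13.5 and 94.8% at P90. At P90 the high share of Scg3 also differed between cells grouped by Slc6a3 and Nxph4, as given below. The part of cell make-up in the stage difference of Scg3 was not tested. By mean RPKM, Scg2, Scg5, Chga and Vgf were higher at P90 than at E13.5, and Scg3 and Chgb lower.

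**Figure D1:**
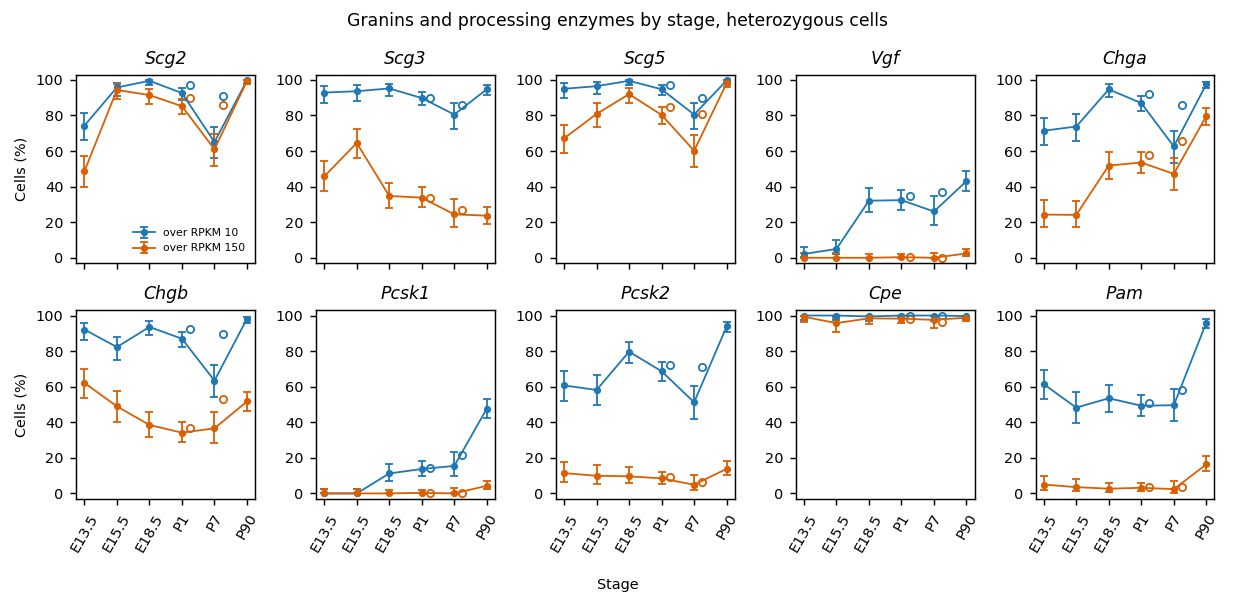
Share of heterozygous cells (%, vertical axis) over RPKM 10 (blue) and RPKM 150 (orange) by stage (horizontal axis) for the 6 granins and 4 processing enzymes; bars are exact 95% intervals, and open circles at P1 and P7 leave out cells with 3 or more astrocyte markers. Scg2 rises to 99.4% of cells over RPKM 150 at P90, Pcsk1 goes from 0% to 47.7% over RPKM 10, and Cpe stays near 100% at every stage.

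Among the enzymes, Pcsk1 (prohormone convertase 1) was over RPKM 10 in 0 of the 140 cells at E13.5, so that up to 2.14% is allowed. The share stayed at 0% (E15.5), stood between 11.2% and 15.4% from E18.5 to P7, and was 47.7% in P90 cells (42.1 to 53.3%). The median P90 cell had an RPKM of 4.67. Pam was detected in 61.4% of cells at E13.5, between 48.2% and 53.5% from E15.5 to P7, and in 96.0% at P90, 34.6 points more than at E13.5 (26.4 to 43). Pcsk2 (prohormone convertase 2) was detected in 60.7% at E13.5 and 93.8% at P90, where the share was 33.1 points higher (24.8 to 41.7). Cpe was high in at least 95.7% of cells at every stage. Cpe was also high in 94.8% of the oligodendrocyte-marker cells, of which 49% also had at least 3 neuronal markers over RPKM 10. Pam, Pcsk2 and Pcsk1 were detected in 21.9%, 28.1% and 2.08% of those cells.

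After each cell was thinned to 100000 reads, Pcsk1 was detected in 45.2% of P90 cells and 0% of E13.5 cells, and Pam in 92.9% and 61.4%. Pcsk2 has exons that overlap antisense transcripts, and the reads do not mark strand, so its reads and theirs cannot be told apart; the same holds for Penk.

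Motifs were searched in the 250 bases before the RefSeq start of 31 of the 39 members (34 windows, build GRCm38.p6), because many of these genes are known for a cyclic AMP response element (CRE). The full element TGACGTCA, which reads the same on both strands, occurred in 6 of 34 member windows (17.6%), beside 1.55% of 32851 windows of all genes. The short element TGACG on either strand, which the full element contains, was in 20 of the 34 windows (58.8%), beside 17.8%. Stretches of 30 bases from 8 members are shown as examples, 4 with the full element and 4 precursors with the short one; capitals mark the element, CGTCA being the short element on the opposite strand.
Scg2 (chr1:79440076-79440105, minus strand): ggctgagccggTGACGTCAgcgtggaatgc
Chgb (chr2:132781559-132781588, plus strand): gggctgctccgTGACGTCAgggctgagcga
Pcsk1 (chr13:75089768-75089797, plus strand): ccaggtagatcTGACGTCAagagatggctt
Sst (chr16:23890874-23890903, minus strand): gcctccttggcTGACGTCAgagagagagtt
Adcyap1 (chr17:93198914-93198943, plus strand): ggactaggatgcTGACGtcttttactgata
Calca (chr7:114636405-114636434, minus strand): gaagcacagaggTGACGcaatctgtctggg
Cck (chr9:121495724-121495753, minus strand): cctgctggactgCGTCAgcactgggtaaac
Vip (chr10:5639127-5639156, plus strand): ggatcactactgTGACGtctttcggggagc
The printed stretches of Scg2, Chgb and Sst overlap an annotated exon of the reference annotation. Genes with the element had different courses. Scg2 and Pcsk1 were higher at P90 than at E13.5, Chgb was lower, and Ucn, which also holds the full element, was detected in 0% of P90 cells. A match describes letters in a window and not binding. The element was picked because it is known in many of these genes, so its higher share among members is a description.

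The precursors were more selective. Cck, encoding cholecystokinin, led the group before birth. It was high in 45% of E13.5 cells and 66.7% of E15.5 cells. Later shares were lower, at 49.2% (E18.5), 39.1% (P1), 30.1% (P7) and 28.6% (P90). Without astrocyte-marker cells the P7 share was 43%. The cells sampled also differed between stages. At P90, Cck was most often high in cells with Slc6a3 alone over RPKM 150 among Slc6a3, Nxph4 and Gad2. Such cells made up 17.9% of E13.5, 27% of E15.5, 42.2% of E18.5, 36.6% of P1, 23.6% of P7 and 20.3% of P90 cells. Within them Cck was high more often at P90 than around birth, as given below. Mean levels were RPKM 454 (E13.5) and 598 (P90), and the highest single cell was at 4898 and 14777. Among cells with any precursor over RPKM 150, Cck was the leading one in 95.5% at E13.5 and 37.6% at P90.

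Adcyap1, which encodes PACAP, was detected in 9.29% of E13.5 cells and 29.8% of E15.5 cells. Its share was 37.4% before birth (E18.5), 35.2% (P1) and 24.4% (P7, or 31.6% without astrocyte-marker cells) after it, and 62.8% in P90 cells. At P90 33.9% of cells were high, 32.4 points more than at E13.5 (26.3 to 37.8). Calca, whose transcripts encode calcitonin and CGRP, was at 0 in all 140 E13.5 cells and detected in 45.9% at P90 (40.3 to 51.4%). Its paralog Calcb was detected in 4.31% at P90, and reads shared between them would not have been counted, since reads that map more than once were dropped. Penk (proenkephalin) was detected in 0.714% at E13.5 and 24.3% at P90. Tac1, the precursor of substance P, was detected in 7.14% and 16%, and its highest P90 cell had an RPKM of 4236. The Tac1 share did not rise steadily. It was already 16.6% just before birth (E18.5), 9.86% on day P1 and 13.8% on day P7, and lowest in E15.5 cells at 2.13%. Without plate P90_4 the Tac1 difference between P90 and E13.5 was 6.22 points, with an interval of -0.463 to 12.15. Among P90 cells over RPKM 150 for Slc6a3, Nxph4 or Gad2 alone, these 4 precursors were detected most often in those with Nxph4. Cells with Nxph4 alone over it made up 27.1% of E13.5, between 8.13% and 15.6% of E15.5 to P7 and 45.2% of P90 cells. The part of this shift in the stage differences of Cck, Adcyap1, Calca, Penk and Tac1 was not tested, and values within the classes are given below.

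Pdyn (prodynorphin) had its highest shares around birth. Shares were 0.714% (E13.5), 19.3% (E18.5), 16.9% (P1), 8.13% (P7) and 2.77% (P90). Without astrocyte-marker cells the P7 share was 11.4%. Gal (galanin) and Trh (thyrotropin-releasing hormone) were detected in 16% and 8.56% at E18.5, and in 17.7% and 7.59% at P7 without astrocyte-marker cells.

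**Figure D2:**
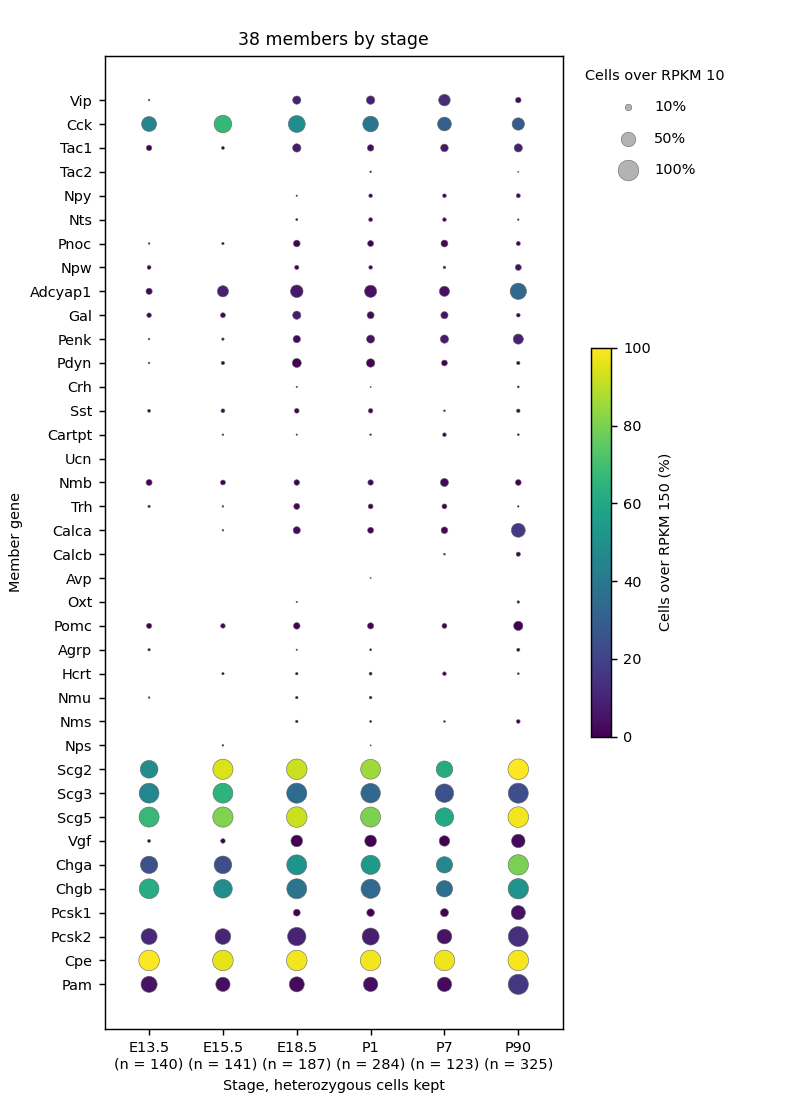
Heterozygous cells at 6 stages (columns, with the number of cells) for the 38 matched members (rows); dot area is the share of cells over RPKM 10 (%) and colour the share over RPKM 150 (%). Of the 10 granins and enzymes at the bottom, Vgf and Pcsk1 stay at or under 47.7% of cells over RPKM 10 at every stage, and among precursors Cck has the highest share over RPKM 150, 66.7% at E15.5.

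In mean RPKM on the log2(mean + 1) scale, 16 of the 26 members whose mean reached RPKM 1 in one of the groups were 2-fold or more higher at P90 than at E13.5, beside 20.8% of 15547 genes. Chgb alone was 2-fold lower, beside 19.9%, a count that was 0 without plate P90_4 and 2 without plate P90_1 or P90_5. The members' median log2 difference was 1.36 and that of all genes tested -0.07. Of the 16, 11 were precursors, namely Vip, Tac1, Npy, Pnoc, Npw, Adcyap1, Penk, Calca, Calcb, Pomc and Nms, and the others were Scg2, Scg5, Vgf, Chga and Pcsk1. Among the 16, Vip, Npy, Pnoc, Penk, Calca, Calcb, Nms, Vgf and Pcsk1 had a mean under RPKM 1 at E13.5. A member that passes the level filter only through P90 had to differ, so the count is a description. The members' median of 1.36 includes such members. From E13.5 to E18.5, 14 of 25 members were 2-fold higher, beside 14.6%, and 1 was lower, beside 8.97%. From P1 to P90, 8 of 30 were 2-fold higher and 8 lower, beside 8.66% and 17.4%.

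A further list held 33 other genes of the vesicle and of processing. Of the 30 with a mean of at least 1, 13 were 2-fold higher at P90 than at E13.5 and 0 lower, beside 20.8% and 19.9% of all genes. The furthest was Resp18, an endocrine secretory protein, with a mean RPKM of 78.2 at E13.5 and 1720 at P90. Ptprn (IA-2, a vesicle membrane protein) and Syt9 (a calcium sensor) followed. Of the peptide receptors, 18 of 28 tested were 2-fold higher and 1 lower (Npy1r), with Tacr3, the receptor of neurokinin B, at 0 and 25.5. Of 25 other precursors, 13 were tested, 6 were higher, led by Grp at 1.38 and 81.2, and 2 lower. Here too, a gene that passed the level filter only through P90 could only stand higher there, so the counts are descriptions. The furthest receptors, Tacr3, Ntsr1 and Trhr, had means of RPKM 0, 0.988 and 0.265 at E13.5.

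At P90 the cells were divided by 3 genes into classes that share no cell: Slc6a3 (the dopamine transporter) over RPKM 150 alone in 66 cells (20.3% of P90 cells), Nxph4 alone in 45.2% and Gad2 alone in 57 cells (17.5%), with 29 cells over it for none and 26 for several. The classes are ranges and not types. Of all P90 cells, 7 lay between RPKM 100 and 200 for Slc6a3, 28 for Nxph4 and 12 for Gad2. Th, the rate-limiting enzyme of dopamine synthesis, had a mean RPKM of 5641, 134.8 and 538.7 in the 3 classes. Slc17a6 (the vesicular glutamate transporter VGLUT2) had 33.9, 323.7 and 142.9, and Slc32a1 (the vesicular GABA transporter) was detected in 1.52%, 0.680% and 63.2%. At least 3 neuronal markers were over RPKM 10 in every cell of the 3 classes. Gad1, a defining GABAergic marker, was listed at 0 in all 57 cells of the Gad2 class, which is therefore called only by Gad2. It was detected in 8.16% of the Nxph4 class at a mean RPKM of 16.5, and the reason for the 0 was not determined.

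Several precursors differed between the classes. Cck was high in 80.3% of the Slc6a3 class, 31.6% of the Gad2 class and 1.36% of the Nxph4 class. It was also high in 65.5% of the 29 cells over RPKM 150 for none of the 3 genes. In the Slc6a3 class its RPKM ranged from 0 to 12242 with a median of 1081, and in the Nxph4 class from 0 to 805 with a median of 0.875. The detected share was 84.5 points higher in the Slc6a3 than in the Nxph4 class (73.6 to 90.6) and 40.5 points lower in the Gad2 than in the Slc6a3 class (24.3 to 54.2). Cck was detected in 3.4% of the Nxph4 class and in 15.6% of the 96 oligodendrocyte-marker cells, which had a median of 2032088 reads. Npw (neuropeptide W) was detected in 36.4% of the Slc6a3 class (24.9 to 49.1%), in 1 of 57 cells of the Gad2 class and in 0% of the Nxph4 class, which allows up to 2.04%.

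Adcyap1 was high in 58.5% of the Nxph4 class, 13.6% of the Slc6a3 class and 5.26% of the Gad2 class. Its median RPKM was 192.9, 3.89 and 0.717, and the highest single cells were at 1303, 626 and 177.3. The detected share was 38.9 points lower in the Slc6a3 class (25.2 to 51.4) and 59.8 points lower in the Gad2 class (45.6 to 70.4) than in the Nxph4 class. Calca was detected in 64% of the Nxph4 class, 36.8% of the Gad2 class and 13.6% of the Slc6a3 class, and each of the 3 pairs differed with an interval that left out 0. Tac1 was detected in 29.9% of the Nxph4 class, 5.26% of the Gad2 class and 1.52% of the Slc6a3 class, and Penk in 40.8%, 3.51% and 16.7%. In the oligodendrocyte-marker cells Adcyap1, Calca, Tac1 and Penk were detected in 7.29%, 3.12%, 4.17% and 1.04%.

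The order of the Slc6a3 and Nxph4 classes was the same in every plate for these 6 precursors. In each of the 4 P90 plates Cck and Npw were detected more often, and Adcyap1, Calca, Tac1 and Penk less often, in the Slc6a3 than in the Nxph4 class. For Adcyap1 the difference ran from -55.1 to -32.3 points over the plates, and for Penk from -41.9 to -3.08. For Calca, the Gad2 minus the Nxph4 class ran from -52.05 to -6.15 points, and the Gad2 minus the Slc6a3 class from 6.35 to 35.9. The share of Adcyap1 in the Slc6a3 class itself varied from 25% to 57.7% over the plates.

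**Figure D3:**
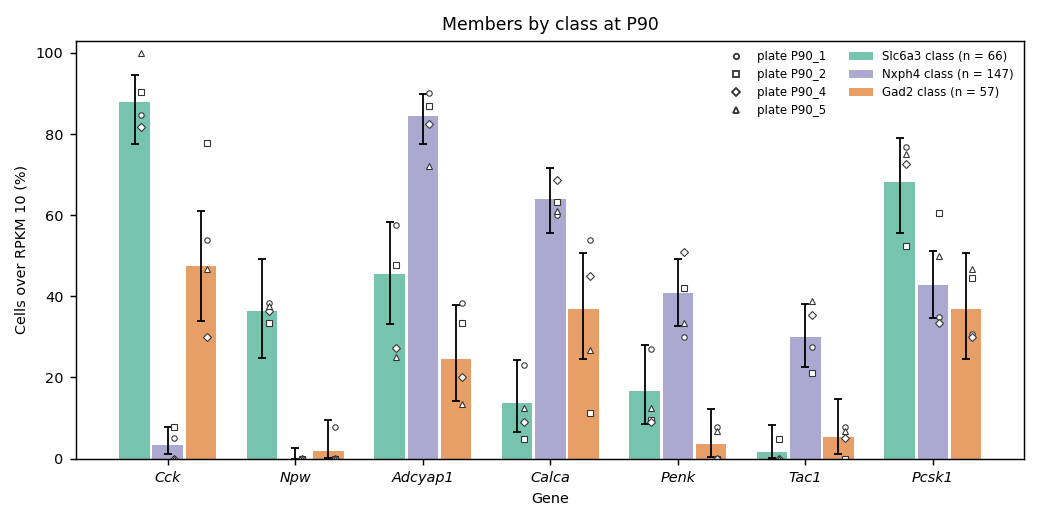
Share of P90 heterozygous cells over RPKM 10 (%, vertical axis) for 7 members in the Slc6a3, Nxph4 and Gad2 classes (colours); bars are class values with exact 95% intervals, and symbols are the 4 plates. Cck, Npw and Pcsk1 stand highest in the Slc6a3 class (87.9%, 36.4%, 68.2%), and Adcyap1, Calca, Penk and Tac1 in the Nxph4 class (84.4%, 64%, 40.8%, 29.9%).

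Among the granins and enzymes, Scg2 was high in 98.5%, 99.3% and 100% of the Slc6a3, Nxph4 and Gad2 classes, and Cpe in at least 97% of each. Pcsk1 was detected in 68.2% of the Slc6a3 class, 42.9% of the Nxph4 class and 36.8% of the Gad2 class, 25.3 points more in the first than in the second (10.9 to 37.9). This order turned in 1 of the 4 plates, with 52.4% and 60.5%. Without plate P90_2 the difference was 38.9 points, and without plate P90_1 16.7 points with an interval of -1.41 to 32.8. Scg3 was high in 39.4%, 14.3% and 17.5%, 25.1 points more in the Slc6a3 than in the Nxph4 class, and 1.82 points more among cells with Npas4, an immediate early gene, not over RPKM 10. Chga was high in 68.2% of the Slc6a3 and 84.4% of the Nxph4 class, 16.2 points fewer in the first (4.14 to 29.1). Without plate P90_4 the Chga difference was -9.56 points with an interval of -24 to 3.77. Pam was detected in 92.4%, 100% and 87.7%.

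Immediate early genes, a sign of dissociation or activity, also differed: at least 3 of 5 (Fos, Junb, Egr1, Arc, Npas4) were over RPKM 10 in 36.4% of the Slc6a3 class, 67.3% of the Nxph4 class and 75.4% of the Gad2 class, with summed RPKM of 0.852 to 3966, 1.54 to 7837 and 1.12 to 3799. Their part in the class differences was not tested. Among cells with Npas4 not over RPKM 10, Adcyap1 was high in 61.8% of 55 Nxph4-class cells, 11.4% of 44 Slc6a3-class cells and 9.09% of 22 Gad2-class cells. The share of cells with at least 3 of these genes was 9.29% at E13.5 and 59.7% at P90. Among P90 cells with Npas4 not over RPKM 10, Adcyap1 was detected in 57.8%, Pcsk1 in 51%, Calca in 40.8% and Vgf in 40.1%. Cck was detected in 46.9% of these P90 cells and 52.6% of the E13.5 cells, a difference of -5.62 points, against -16.9 points over all cells and -11.1 points without plate P90_4.

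Between the Slc6a3 and Nxph4 classes, 5 of 25 tested members were 2-fold higher in the Slc6a3 class (Vip, Cck, Npw, Gal, Crh), beside 6.01% of genes, and 7 were lower (Tac1, Npy, Adcyap1, Penk, Calca, Calcb, Nms), beside 10%. With a pseudocount of 10 there were 3 higher, and by the mean of log2(RPKM + 1) 4 lower. Of these members Npw, Crh, Tac1, Npy, Calcb and Nms reached a mean of RPKM 1 in 1 class alone and so had to differ, and Crh was detected in 2 of 66 cells. Counts of this kind, here and below, are descriptions. Between Gad2 and Nxph4 classes 7 of 29 were higher and 6 lower, beside 5.08% and 6.68%, and higher counts were 4 without plate P90_4, 3 with a mean of at least RPKM 5, 2 with a pseudocount of 10 and 1 by the mean of log2 values. Between Gad2 and Slc6a3 classes 9 of 29 were higher and 7 lower, beside 10.2% and 7.54%. All members past the line in these 3 comparisons were precursors. The comparisons share cells in pairs and are not independent. In perinatal cells (E18.5, P1 and P7 together) 8 of 27 were higher and 7 lower in the Slc6a3 than in the Nxph4 class, beside 7.19% and 8.53%. Of 29, 3 were higher and 9 lower in the Gad2 than in the Nxph4 class, beside 8.41% and 9.74%, and of 27, 5 were higher and 7 lower than in the Slc6a3 class, beside 7.14% and 7.25%.

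Among the peptide receptors, 13 of 31 tested were 2-fold higher in the Slc6a3 than in the Nxph4 class and 6 lower, beside 6.01% and 10% of all genes. Ntsr1, a neurotensin receptor, had a mean RPKM of 108.4 and 1.90, and Cckar, a cholecystokinin receptor, 13.0 and 0.825. Nts itself was detected in 0% of both classes. Of the 30 tested vesicle genes 2 were higher and 1 lower, beside the same 6.01% and 10%. Cadps2, a vesicle priming factor, was at 74.7 and 1.68, Ptprn at 135.1 and 61.1, and Pcsk7 was lower in the Slc6a3 class at 2.42 and 10.9.

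Precursors were also distributed unevenly within classes. In the Nxph4 class the 86 cells with high Adcyap1 had Penk detected in 59.3%, against 14.8% of the 61 other cells, 44.5 points more (29.3 to 56.5). Calca was detected in 73.3% of them and 50.8% of the others. The 26 cells with high Tac1 had Calca detected in 42.3%, against 68.6% of the others (26.3 points fewer, 5.61 to 44.7), and Th in 11.5% against 57%. In the Slc6a3 class none of the 9 cells with high Adcyap1 had Npw detected, against 42.1% of the 57 others. These are descriptions of cells of several animals, with no test.

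Vip (vasoactive intestinal peptide) was singled out after its values had been seen, because 10 P90 cells (3.08%) were high. In the Slc6a3 class 6 of 66 cells were high and the mean RPKM was 1199 at a median of 0, with the highest cell at 33177. Of these 6 cells 5 had Npw detected and 0 had Adcyap1, against 31.7% and 50% of the 60 others. High Vip was not limited to this class. Among the 29 P90 cells over RPKM 150 for none of the 3 class genes, it was high in 3, at a mean RPKM of 1877. Th was over RPKM 150 in 86.2% of those 29 cells. The detected share of Vip was 31.7% at P7, 16.9% at P1 and 7.38% at P90, and without astrocyte-marker cells 29.1% at P7 and 18.1% at P1. It was 18.8% in oligodendrocyte-marker cells and 25.4% in astrocyte-marker cells, of which 49% and 36.6% had at least 3 neuronal markers. High cells made up 12.2% at P7 (17.7% without astrocyte-marker cells) and 4.17% of the oligodendrocyte-marker cells.

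Against perinatal cells (E18.5, P1 and P7 together) of the same class, P90 cells differed by class. In the Slc6a3 class (66 P90 cells, and 13.7% of all kept cells as perinatal ones) Npw was detected in 36.4% against 2.83%, Pdyn in 0% against 23.1% and Pcsk1 in 68.2% against 18.9%. Cck was high in 80.3% against 57.5%, 22.8 points more (9.88 to 33.1). In this class 9 of 25 members were 2-fold higher and 6 lower, beside 10.3% and 18.9%. In the Nxph4 class (9.47% of all kept cells at P90, and 65 perinatal cells) Penk was detected in 40.8% against 7.69%, Calca in 64% against 23.1% and Adcyap1 high in 58.5% against 21.5%. Tac1 was detected in 29.9% against 23.1% there, with an interval of -6.57 to 18.5 points. Sst (somatostatin) was detected in 2.04% against 13.8%, 11.8 points fewer (4.38 to 22.3). There 8 of 27 were 2-fold higher and 6 lower, beside 13.5% and 17.9%. Pam was detected in 92.4% against 53.8% in the Slc6a3 class and in 100% against 63.1% in the Nxph4 class.

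In the number of precursors over RPKM 150 per cell, the median was 0 among E13.5 and P7 cells (1 at P7 without astrocyte-marker cells) and 1 among E15.5, E18.5, P1 and P90 cells, and the highest count was 4. Cells with no such precursor made up 52.9% (44.2 to 61.3%) of the E13.5 and 29.5% (24.6 to 34.8%) of the P90 cells. At least 2 were found in 2.86% and 32.3%. Within P90 the share with at least 2 was 40.9% in the Slc6a3 class, 40.1% in the Nxph4 class and 8.77% in the Gad2 class. Thinned to 100000 reads these were 40.9%, 36.7% and 12.3%. Unthinned, the share with at least 2 was 44.8% in the 29 P90 cells over RPKM 150 for none of the 3 class genes. At P7 the share with none was 50.4%, and 34.2% without astrocyte-marker cells; at least 2 were found in 17.9% and 24.1%.

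**Figure D4:**
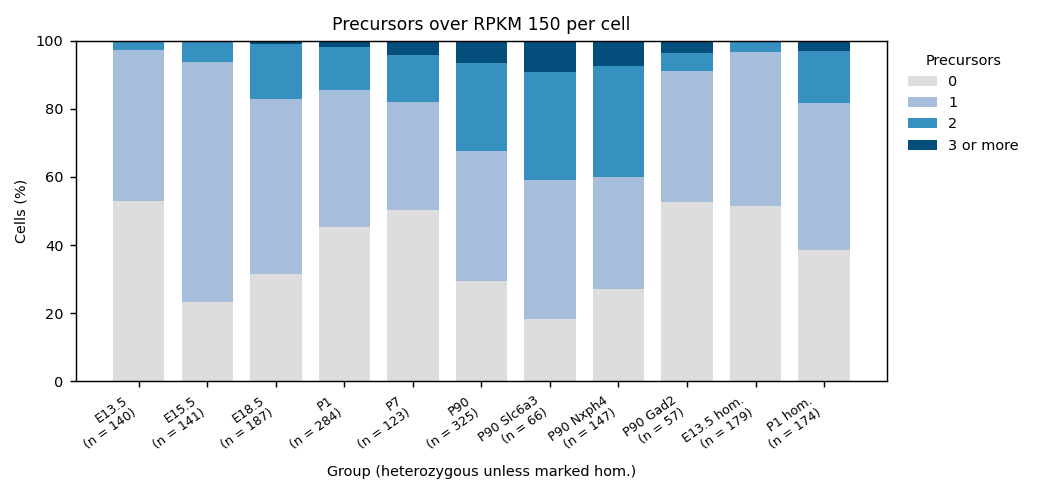
Share of cells (%, vertical axis) with 0, 1, 2 or 3 and more of the 28 precursors over RPKM 150, for the 6 heterozygous stages, the 3 P90 classes and the 2 homozygous groups (bars, with the number of cells). Cells with at least 2 go from 2.86% at E13.5 to 32.3% at P90.

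The genotype comparison asks how the peptide system stands without Pitx3. As a check of the labels, the mean RPKM of Pitx3 was 416 in heterozygous and 18.8 in homozygous cells at E13.5, and 115.7 and 7.87 at P1 (heterozygous cells with spike-in RNA). Slc6a3 was at 117.3 and 7.11 at E13.5, and at 666 and 44.3 at P1. At E13.5 the homozygous cells had spike-in RNA and the heterozygous cells had none, and at P1 the 2 genotypes lie on different plates, so these cannot be told apart from genotype. The median depth at E13.5 was 753256 reads in homozygous and 2357898 in heterozygous cells, and at P1 1341690 and 1168619.

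At E13.5 Scg2 and Pam had lower shares in homozygous cells. Scg2 was high in 26.3% of homozygous and 48.6% of 140 heterozygous cells, 22.3 points fewer (11.7 to 32.4). Thinned to 100000 reads the shares were 27.9% and 47.1%. Medians were 55.4 and 130.6, and the ranges of 0 to 1699 and 0 to 1123 overlapped. Pcsk2 was detected in 48.6% and 60.7%, 12.1 points fewer (1.09 to 22.7), and thinned in 46.4% and 59.3%. Without plate 13H_4 the Pcsk2 difference was -8.54 points (-21.2 to 4.37), and without 13H_5 -10.4 points (-21.3 to 0.919). Pam was detected in 45.8% and 61.4%, 15.6 points fewer (4.58 to 26.1). Adcyap1 was detected in 17.3% and 9.29%, 8.03 points more (0.359 to 15.3). Its share was 24.1% in homozygous plate 13H_4, 4.55% in 13H_5 and 12.9% in 13H_6, and without 13H_4 the difference was 1.58 points (-6.1 to 10.4). For Cck the interval of the difference was -1.73 to 19.8 points. Of 22 tested members 5 were 2-fold higher and 2 lower, beside 4.35% and 4.77% (3 and 1 without homozygous plate 13H_5, 8 and 2 without 13H_6, 1 and 0 with a pseudocount of 10, 0 and 1 by the mean of log2 values), and their means lay under 8 except for Cartpt, whose 31.2 rests on 1 cell at 5525. Immediate early genes stood higher in homozygous cells, with Fos over RPKM 10 in 60.3% against 34.3% and Egr1 in 68.2% against 43.6%. The cells also differed in make-up. Slc6a3 was over RPKM 150 in 0.559% of homozygous and 17.9% of heterozygous cells, and Th in 43% and 64.3%. The part of immediate early genes and of make-up in these differences was not tested.

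At P1 several precursors and granins differed. Adcyap1 was high in 15.5% of homozygous and 5.32% of 94 heterozygous cells, 10.2 points more (2.19 to 17). Penk was detected in 8.05% and 22.3%, 14.3 points fewer (5.49 to 24.2), and Pdyn in 6.32% and 20.2%, 13.9 points fewer (5.6 to 23.5). Calca was detected in 19% and 9.57%, and Sst in 10.9% and 3.19%, where the mean of 44.4 rests on 10 high cells. Cck was high in 45.4% and 33%, 12.4 points more (0.0839 to 23.8). With either homozygous plate left out, the interval of the Cck difference held 0 (-0.102 to 27.7 and -3.4 to 24.3), as did that of high Adcyap1 without plate P1H_2 (-0.213 to 17.8). The interval for detected Calca also held 0 without plate P1H_1 (-1.365 to 19.23) and without P1H_2 (-0.366 to 20.5). Among the granins, Scg2 was detected in 91.4% and 100%, 8.62 points fewer (3.47 to 13.7), Chgb in 83.3% and 97.9%, 14.5 points fewer (7.38 to 21), and Chga in 86.2% and 96.8%. At least 3 astrocyte markers were present in 19 homozygous cells (10.9%) and 1 of the 94 heterozygous cells. At least 3 of 5 microglia markers were over RPKM 10 in 8 homozygous cells (4.6%), with a summed RPKM of up to 19774, and in 0 of the 94 heterozygous cells, where all 5 were at 0; their part in the differences was not tested. Without the astrocyte-marker cells the differences were -3.87 points for Scg2, -7.53 for Chgb, -14.2 for Penk and -14.0 for Pdyn, and 12 points for high Adcyap1. Against all heterozygous P1 cells, of which 8.45% had astrocyte markers, the differences were -1.23 points for Scg2 (-6.92 to 3.71), -3.64 for Chgb (-10.8 to 2.89) and -0.765 for Chga (-7.6 to 5.43). The precursors then differed by -7.45 points for Penk (-13.1 to -1.2), -10.6 for Pdyn (-16.1 to -4.51), by 10.9 for high Adcyap1 (5.37 to 17.3) and by 6.32 for high Cck (-2.93 to 15.6). Slc6a3 was over RPKM 150 in 9.2% of homozygous and 56.4% of the 94 heterozygous cells. Among cells with Slc6a3 not over RPKM 150 (10.2% and 2.64% of all kept cells), Penk was detected in 6.33% and 12.2% and Pdyn in 6.33% and 9.76%, with intervals of -19.5 to 2.59 and -16.5 to 4.26 points. Adcyap1 was high in 17.1% and 7.32% there, with an interval of -3.36 to 18.0 points. Of 28 tested members 6 were 2-fold higher and 5 lower in homozygous cells, beside 11.1% and 2.34%. These counts were 1 and 2 with a pseudocount of 10, and 0 and 1 by the mean of log2 values. In cells with Slc6a3 not over RPKM 150, 6 of 28 were higher and 4 lower, beside 14.5% and 4.22%. Against all heterozygous P1 cells, 2 of 29 were higher and 7 lower, beside 3.99% and 3.28%.

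**Figure D5:**
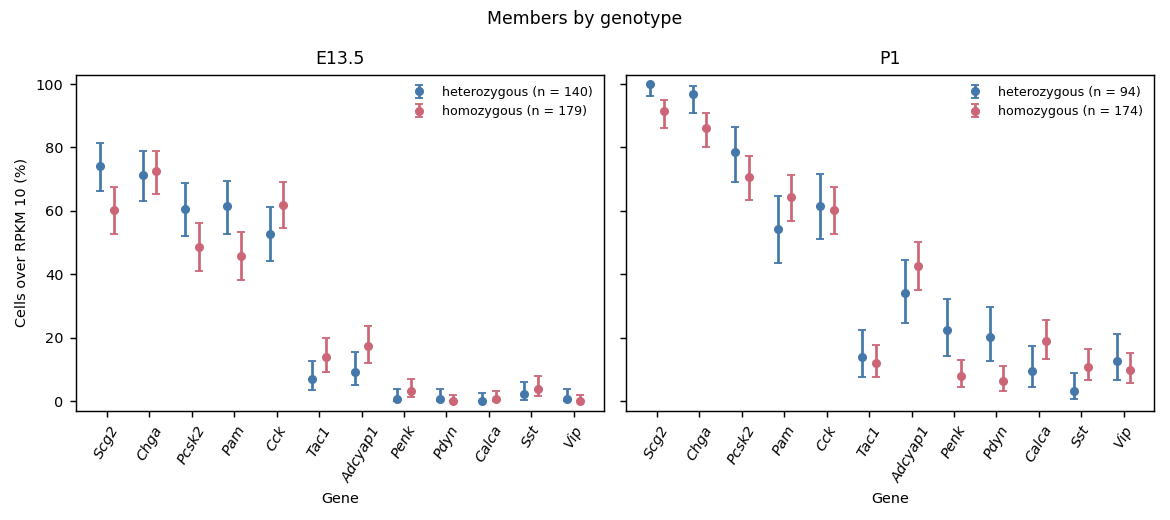
Share of cells over RPKM 10 (%, vertical axis) in heterozygous (blue) and homozygous (red) cells at E13.5 (left) and P1 (right, heterozygous cells with spike-in RNA) for 12 members; bars are exact 95% intervals. Scg2 is lower in homozygous cells at E13.5 (60.3% against 74.3%), and Penk and Pdyn at P1 (8.05% against 22.3%, 6.32% against 20.2%).

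The other 21 matched members were precursors that reached neither limit for full values in a compared group. P7, where Vip was high in 12.2% of cells, was not compared as a group by itself. Of the 21 members, 14 were detected in under 5% of cells at every heterozygous stage. Of the same 21, 8 (Crh, Ucn, Calcb, Avp, Oxt, Agrp, Hcrt, Nmu) were over RPKM 150 in 0 of 1200 heterozygous cells. Crh, the corticotropin-releasing hormone, peaked at 0.923% and Avp, vasopressin, at 0.352%. Pomc, the precursor of ACTH and endorphin, was detected in 20.3% at P90 and 6.43% at E13.5 at low levels, since 0.308% of P90 cells were high. Nmb (neuromedin B) was detected in 15.4% at P7 and 19% without astrocyte-marker cells, Pnoc (nociceptin precursor) in 11.4% at P7 and 17.7% without astrocyte-marker cells, and Npy in 4% at P90. Nmb was also detected in 14.6% of the oligodendrocyte-marker and 15.5% of the astrocyte-marker cells. Exons of Nmb overlap those of Sec11a, so its reads may belong to either gene. Sst was high in 3 of 57 cells of the P90 Gad2 class and in 0% of the Nxph4 class.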

How the data were processed

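Single cells were sorted for GFP and sequenced with Smart-seq2. The authors aligned reads with STAR to mm10 with eGFP and spike-in sequences, kept reads that map once, and computed RPKM per Ensembl release 69 entry with rpkmforgenes. The deposited files hold read counts and RPKM values for 39468 entries per cell, of which 38130 have a gene symbol; 0.211% of reads fell on entries without one. In 45 values reads were present but RPKM was 0.

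Cells with at least 100000 reads and with reads in at least 15.0% of the entries seen in any cell (3.4% at P90) were kept, 1649 of 1699. Of these, 96 with at least 3 oligodendrocyte-lineage markers over RPKM 10 were left out. Doublets were not called. Groups came from the labels. Each group was 1 sample, so means were compared as log2(mean RPKM + 1) with no test, at a 2-fold line, among genes whose mean reached RPKM 1 in either group, since RPKM values are not suited to a count model and counts of single cells are not replicates. A difference on this scale understates the change of low genes. Depth was compared by thinning each cell to 100000 reads (seed 1). Intervals are 95% and a share of 0 is given the limit of 3 counts.

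Members got full values when over RPKM 150 in at least 10% of the cells of a compared group, or when the share over RPKM 10 differed by at least 20 points with an interval that left out 0. The members, gene lists and rules were chosen with earlier results of these data known. Exons of Penk, Nmb, Agrp, Nmu, Pcsk2 and Pam overlap other genes, and the protocol does not mark strand. Alternatives changed the pseudocount, filters, depth, cell selection, plates and thresholds. Scripts used Python 3.11.15, numpy 2.4.6, pandas 2.3.3, scipy 1.17.1, statsmodels 0.14.6 and matplotlib 3.10.9, and were tested on simulated data.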

Additional observations from a re-analysis of the deposited data

How the results depend on the processing

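Among values under alternatives for the counts of members and the precursors per cell, 46 moved past the limit set for a change. The others of this set stayed within it. Among the differences in share of single members, 1408 stayed, 52 moved and 2 changed sign. The parts that moved cannot be compared between the sets, because their limits differed. The first set was judged by fold change, and each difference in share by its own main interval. A pseudocount or a mean of log2 values also cannot change a share. With 1 plate left out, 576 differences in share stayed and 2 moved. Some intervals nevertheless came to hold 0 then, as given above. Cells could not be paired across stages or genotypes, because the replicate numbers only count single cells within a group and pair none across groups. The P90 classes, which share 4 plates, were compared within each plate, without a test. Members 2-fold higher at P90 than at E13.5 ranged from 14 to 17, and lower from 0 to 2, with 1 P90 plate left out; 2 were lower with a pseudocount of 0.1 and among cells with Npas4 not over RPKM 10. Between the Slc6a3 and Nxph4 classes the ranges without 1 plate were 4 to 7 higher and 5 to 7 lower; 3 were higher with a pseudocount of 10 and 4 lower by the mean of log2(RPKM + 1). Between the Gad2 and Nxph4 classes, 4 to 8 were higher and 6 lower without 1 plate, and higher counts were 2 with a pseudocount of 10, 3 with a mean of at least 5 and 1 by the mean of log2 values. At E13.5, 3 to 8 were higher and 1 to 2 lower in homozygous cells without 1 plate. There the counts higher and lower were 1 and 0 with a pseudocount of 10, 2 and 1 with a mean of at least 5, 3 and 1 by summed reads, and 0 and 1 by the mean of log2 values; 1 was lower after thinning, with cells kept by reads alone and with the share over all entries. At P1, leaving out 1 plate gave 5 to 6 higher and 4 to 5 lower, and plate P1_1, which holds all heterozygous cells of that comparison, could not be left out. The counts were 1 and 2 with a pseudocount of 10, 0 and 1 by the mean of log2 values, 3 lower with a mean of at least 5, and 2 higher against all heterozygous P1 cells. The cause of these changes was not tested.

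The share of cells with no precursor over the limit was 29.3% at RPKM 10 and 64.3% at RPKM 300 in E13.5 heterozygous cells, 4.62% and 48.9% at P90, 2.72% and 51% in the Nxph4 class, 10.5% and 66.7% in the Gad2 class, 16.8% and 62% in E13.5 homozygous cells, 8.62% and 58.6% in P1 homozygous cells, 5.32% and 64.9% in P1 heterozygous cells with spike-in RNA, and 7.58% at RPKM 10 in the Slc6a3 class. The difference in high cells at P1, homozygous minus heterozygous, turned to 3.05 points for Scg5 against all heterozygous P1 cells and to 0.633 points for Penk among cells with Slc6a3 not over RPKM 150. The alternatives without astrocyte-marker cells, by Npas4 and by Slc6a3 at P1 were chosen after seeing the data.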
